A study of Mus musculus with 22 samples.

Results

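Tumours from mice given beta-glucan together with anti-CD40 were compared with untreated tumours. The 5 combination and 5 untreated tumours, taken by their labels, are 10 of the 22 tumours of the series. All had grown in the pancreas from PDA.7940B cells, a polyclonal line derived from the KPC mouse model of pancreatic ductal adenocarcinoma, and all carry the genotype label WT. The combination tumours were taken 10 days after treatment. For the untreated tumours the labels used here state no day, so a matched time point cannot be checked. The labels used here state no doses for the combination. For the single agents they give 1.2 mg of beta-glucan intravenously once (n = 6) and 0.1 mg of the anti-CD40 antibody FGK45 intraperitoneally once (n = 6), also at day 10. The labels give no age or sex of the mice. They do not say that each tumour is its own animal; the p-values rest on the spread among the samples as deposited. Each sample is a section of fixed, paraffin-embedded tumour, so cancer cells, host cells and any attached pancreas were measured together. In such bulk RNA, fewer cells of a type and less RNA per cell cannot be told apart.

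Beta-glucans are glucose polymers of yeast and fungal cell walls. They bind Dectin-1, a C-type lectin receptor of macrophages, dendritic cells and neutrophils that signals through the kinase Syk and the adaptor Card9 to NF-kB and to the phagocyte oxidase. CD40 is a receptor of B cells, dendritic cells and macrophages; its ligand on helper T cells, or an agonist antibody in its place, makes these cells present antigen and secrete cytokines that support T cells. Pancreatic ductal tumours usually hold many myeloid cells and much fibrous matrix but few T cells. The series title names joint activation of myeloid cells as its subject.

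Values are normalized counts, and levels were compared as log2(value + 1). A log2 fold change is the difference of the group means on that scale, with its standard error after the ±. A gene was called higher or lower where limma gave an adjusted p under 0.05. Depth was 7375930 to 9340171 reads in untreated and 12240871 to 18843110 in combination tumours, so it moved with the group. After all tumours were thinned to equal depth, 4690 genes were called, 4561 of them among the 4849 called at full depth. Digestive enzyme transcripts of normal acinar pancreas also moved with the group. They took 0.0237, 0.0181, 2.996, 3.72 and 17.5% of the reads of untreated tumours 1, 2, 3, 5 and 6, and 0.590, 28.1, 16.4, 35.6 and 34.9% of those of combination tumours 1 to 5. Combination tumours 1 and 3 thus lay within the untreated range of shares, tumour 3 near its top. Tumour 1 had the lowest share of its group, and its other values are given beside several results. Without combination tumours 4 and 5, the most acinar-rich, 3636 genes were called. Combination tumour 4 had reads in 14078 genes, against 15357 to 15554 in the others of its group. Its share of Rn45s, a ribosomal RNA precursor, was 4.79%, against 1.84 to 2.44%. Untreated tumour 6 likewise had the fewest genes (14595) and the highest Rn45s share (3.74%) of the untreated tumours. Whether this bears on the values of either tumour was not tested.

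Of 14278 genes tested, 4849 (34.0%) were called, 2600 higher (18.2%) and 2249 lower (15.8%). In 3475 genes (24.3%) a called change reached 2-fold. In 3134 genes (21.9%) no combination tumour overlapped any untreated tumour. The median log2 fold change of all tested genes was -0.01. When every tumour was rescaled to the same total the median was -0.45, and 1210 genes were called higher and 2429 lower. The rises were led by genes of antibody-secreting cells and of neutrophils and monocytes, and the falls by genes of gastric and mucous epithelium.

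**Figure D1:**
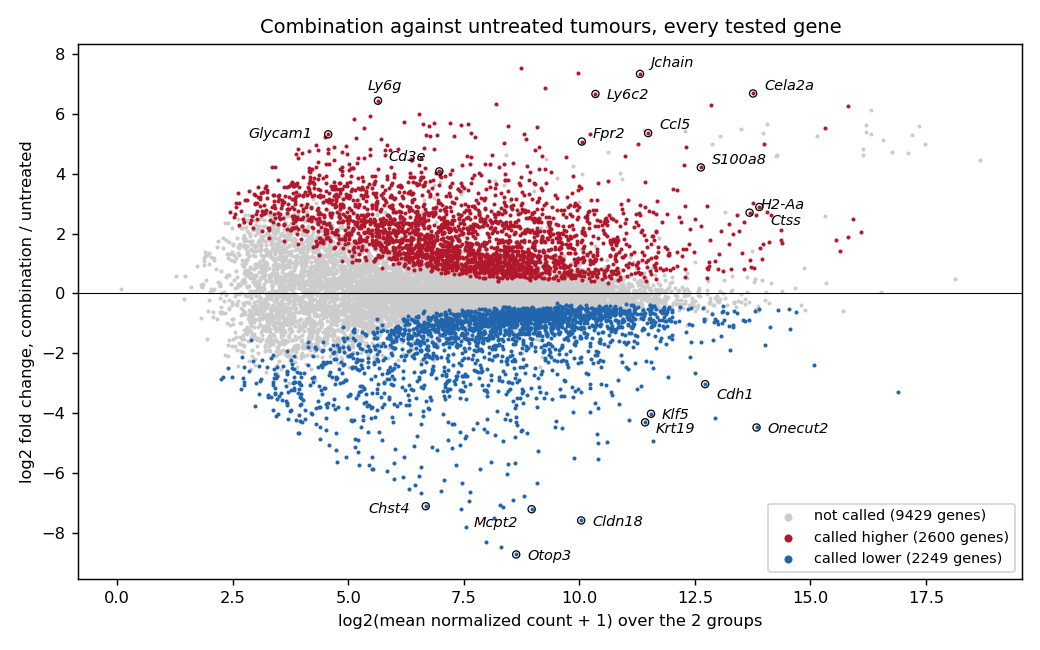
Log2 fold change of the combination over untreated tumours (vertical axis) against the log2 mean normalized count of both groups (horizontal axis) for 14278 genes. Red points are the 2600 genes called higher, blue points the 2249 called lower and grey points the rest, and circles mark genes named in the text.

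The largest rise was that of Mzb1, a chaperone that helps plasma cells assemble antibody. Its normalized counts were 0, 4.32, 0, 11.5 and 15.03 in the untreated and 561, 812, 388, 1781 and 707 in the combination tumours, a log2 fold change of 7.52 ± 0.87 (adjusted p = 1.36e-06). Jchain, which joins IgA and IgM units (GRCm38 chromosome 5, 88519809 to 88527891), stood at 36.6, 18.99, 14.04, 48.1 and 32.6 against 3419, 6166, 2122, 7154 and 6405 (7.34 ± 0.66). Every combination tumour was far above every untreated tumour for both genes. Ngp and Camp, proteins of neutrophil granules, rose by 7.36 ± 1.21 and 6.32 ± 1.45. Ly6g, the surface antigen by which mouse neutrophils are recognised (chromosome 15, 75155240 to 75159126), had 0 reads in all 5 untreated tumours. In the combination tumours it was at 116, 56.03, 35.8, 133 and 149, at least 169-fold higher than a floor of 3 reads over the untreated group. Ly6c2, the inflammatory monocyte antigen, went from 13.3, 22.4, 11.4, 17.2 and 68.9 to 1727, 2499.6, 1092, 5281 and 2289 (6.67 ± 0.48). Ly6i, a related gene of the same family, rose by 6.88 ± 0.57, and 3' reads may be shared between the pair. Slpi, a secreted inhibitor of neutrophil elastase, rose 78.2-fold (6.29 ± 0.57), Fcnb, a ficolin of myeloid precursors, by 5.92 ± 0.86, and Pax5, the B cell identity factor, by 6.003 ± 0.91. The acinar enzymes Cela2a and Try4, 6.68 ± 2.23 and 6.27 ± 2.33, completed the 12 largest rises, with standard errors above 2 and tumours that overlapped between the groups; their calls were lost in 9 and 12 of 24 alternatives.

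The largest fall was that of Otop3, a proton channel of the otopetrin family (chromosome 11, 115334731 to 115346927). It was at 847, 851, 643, 526 and 1077 in untreated tumours and at 0, 0, 18.3, 0 and 0 with the combination, a log2 fold change of -8.73 ± 1.09 (adjusted p = 2.81e-06). Reads were found in combination tumour 3 alone. Adh7, a retinol and alcohol dehydrogenase of the stomach, went from 597, 926, 338, 432 and 205 to 0, 0, 4.17, 0 and 0 (-8.31 ± 1.19). Cym, the gastric protease chymosin, had reads in combination tumour 1 alone (-7.82 ± 1.04), and Prap1, a secreted protein of gut epithelium, in tumour 3 alone (-8.47 ± 1.22). The tight junction gene Cldn18 stood at 2870.1, 2069, 631, 3009 and 1843 against 5.14, 7.31, 50.02, 29.2 and 0 (-7.59 ± 1.04). Mcpt2, which encodes a mast cell protease, fell from 1116, 713, 962, 1188 and 952 to 4.502, 4.26, 52.5, 0 and 6.79 (-7.21 ± 0.79), and its groups did not overlap. The others of the 12 were Mucl3 (-7.52 ± 1.23), Fam83e (-7.20 ± 1.12), Onecut3 (-7.15 ± 1.06), Chst4 (-7.11 ± 0.75), Phlda2 (-7.08 ± 1.18) and Adam28 (-6.95 ± 0.86). In each of these 6 the combination tumours were at or under 45.9.

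Genes of ductal epithelium were lower. Of 20 tested epithelial genes 15 fell, 1 rose and 4 were not called, with a median of -2.04 on the log2 scale. Krt19, the keratin that marks ductal cells (chromosome 11, 100140810 to 100148665), was at 6008, 6328, 5083, 5657 and 2918 in untreated tumours. It was at 293, 259, 606, 183 and 120.3 with the combination (19.8-fold lower, log2 -4.31 ± 0.54, adjusted p = 3.46e-06), so the groups lay far apart. Cdh1, the adhesion molecule E-cadherin, went from 13341, 13226, 14139, 11902 and 7387 to 1035, 1346, 2553, 1347 and 1242 (-3.03 ± 0.36). The epithelial transcription factor Elf3 (-3.48 ± 0.44) and the keratin Krt20 (-4.23 ± 0.59) fell with no overlap between groups. The member called higher was Spint1, a protease inhibitor, by 0.61 ± 0.22, a call lost in several alternatives, rescaled totals and the acinar covariate among them. In combination tumour 1, whose acinar share was low, the mean log2 level of the list was 2.76 under the untreated mean, against 1.70 to 2.32 under it in the other 4.

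The gastric and mucosal list fell furthest. Of 16 genes 12 fell and none rose, with a median of -4.87. Onecut2, a transcription factor, was at 31781, 33600.5, 26026, 33209 and 13754 in untreated and 1938, 1338, 3259, 534 and 501 in combination tumours (-4.48 ± 0.54). Otop3, Cym and Cldn18, given above, are members too. Tff2, a trefoil peptide of mucus, had the opposite sign: it was at 601, 667, 923, 672 and 1269.7 in untreated and at 107, 10121, 2679.6, 6804 and 9829 in combination tumours (1.85 ± 1.34, adjusted p = 0.31, not called). It was low in combination tumour 1, whose acinar share was the lowest of its group, and higher in the other 4. Tff2 was singled out after its values were seen. Of 8 squamous keratin genes 5 fell (3 without combination tumours 4 and 5), among them Krt14 (-5.81 ± 1.001) and Ivl, an envelope protein of squamous cells (-3.85 ± 0.82). Serpinb2, a serine protease inhibitor also made by macrophages, went the other way (3.07 ± 0.76). So did Sprr2e, which is not in the list, with a log2 fold change of 4.34 over untreated tumours. Its call was kept in all 24 alternatives.

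Of 14 transcription factors of endoderm and pancreas 9 fell and 2 rose (median -2.07). Klf5, a factor of proliferating epithelium, was at 6478, 7091, 4921, 4517 and 5162 in untreated and 394, 322, 614, 239 and 246 in combination tumours (-4.02 ± 0.38). Gata4 (-2.92 ± 0.47), Gata5 (-3.44 ± 0.57) and Foxa2 (-2.24 ± 0.36), factors of foregut endoderm, fell without overlap. Prox1 (2.09 ± 0.47) and Onecut1 (2.65 ± 0.77), which cells of normal pancreas also express, rose. Prox1 was lowest in combination tumour 1 (127) and highest in tumours 2 and 5 (481 and 772). Its call was kept in all 24 alternatives, the acinar covariate and the fit without tumours 4 and 5 among them. The call for Onecut1 was lost with the acinar level as a covariate, with edgeR and without tumours 4 and 5.

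**Figure D2:**
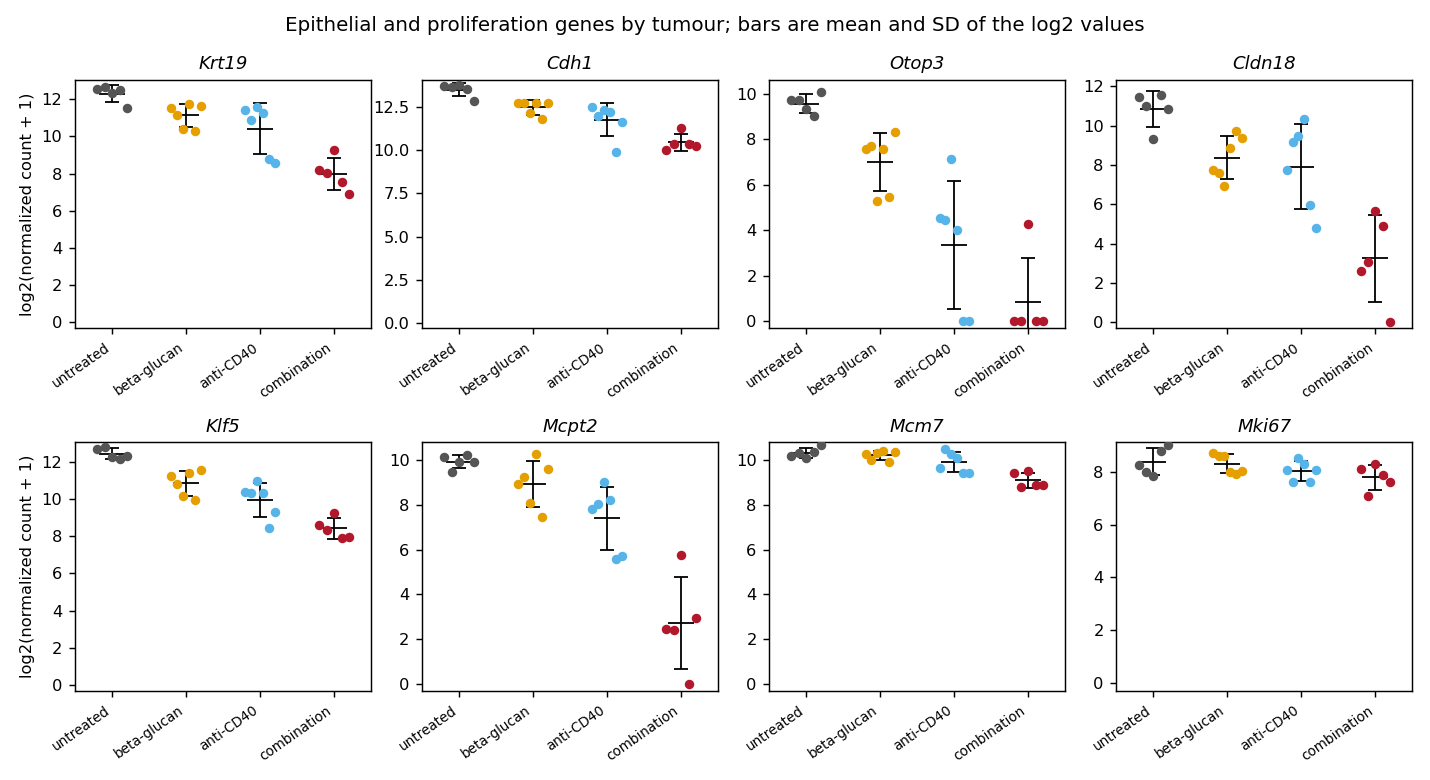
Log2(normalized count + 1) of 8 genes in every tumour of the 4 groups; each point is 1 tumour, and bars are the mean and SD of the log2 values. For Krt19, Cdh1, Otop3, Cldn18, Klf5, Mcpt2 and Mcm7 every combination tumour lies under every untreated tumour, and for Mki67 the groups overlap.

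Genes of DNA replication and mitosis were lower to a smaller degree. Of 26 tested, 11 fell and none rose, with a median of -0.77. Mcm7, a subunit of the replicative helicase, was at 1180.5, 1297, 1104, 1319.7 and 1664 against 684, 453, 740.3, 482 and 471 (-1.23 ± 0.21). Mcm3 (-1.34 ± 0.26), Mcm6 (-1.15 ± 0.24) and the mitotic motor Cenpe (-1.38 ± 0.29) fell as well. Mki67, the usual marker of cycling cells, was at 307, 257, 229, 448 and 518 against 273, 136, 318, 236 and 194 and was not called (-0.59 ± 0.27, adjusted p = 0.09). Without combination tumours 4 and 5 the number that fell was 5, and without tumour 5 alone it was 7. Of 22 glycolysis and hypoxia genes 9 fell and none rose (median -0.69), among them the lactate dehydrogenase Ldha (-0.92 ± 0.22), the hexokinase Hk2 (-1.03 ± 0.27), Ero1l (-1.19 ± 0.25) and Ndrg1 (-1.34 ± 0.29). That count was 3 with the acinar level as a covariate and 5 without tumours 4 and 5, and Hk2 was called in neither. Of 21 oxidative phosphorylation genes 1 rose and 2 fell (median -0.02), and 4 fell with rescaled totals. Of 21 ribosomal protein genes 3 fell, 7 with rescaled totals, 5 without untreated tumour 6 or combination tumour 4.

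**Figure D3:**
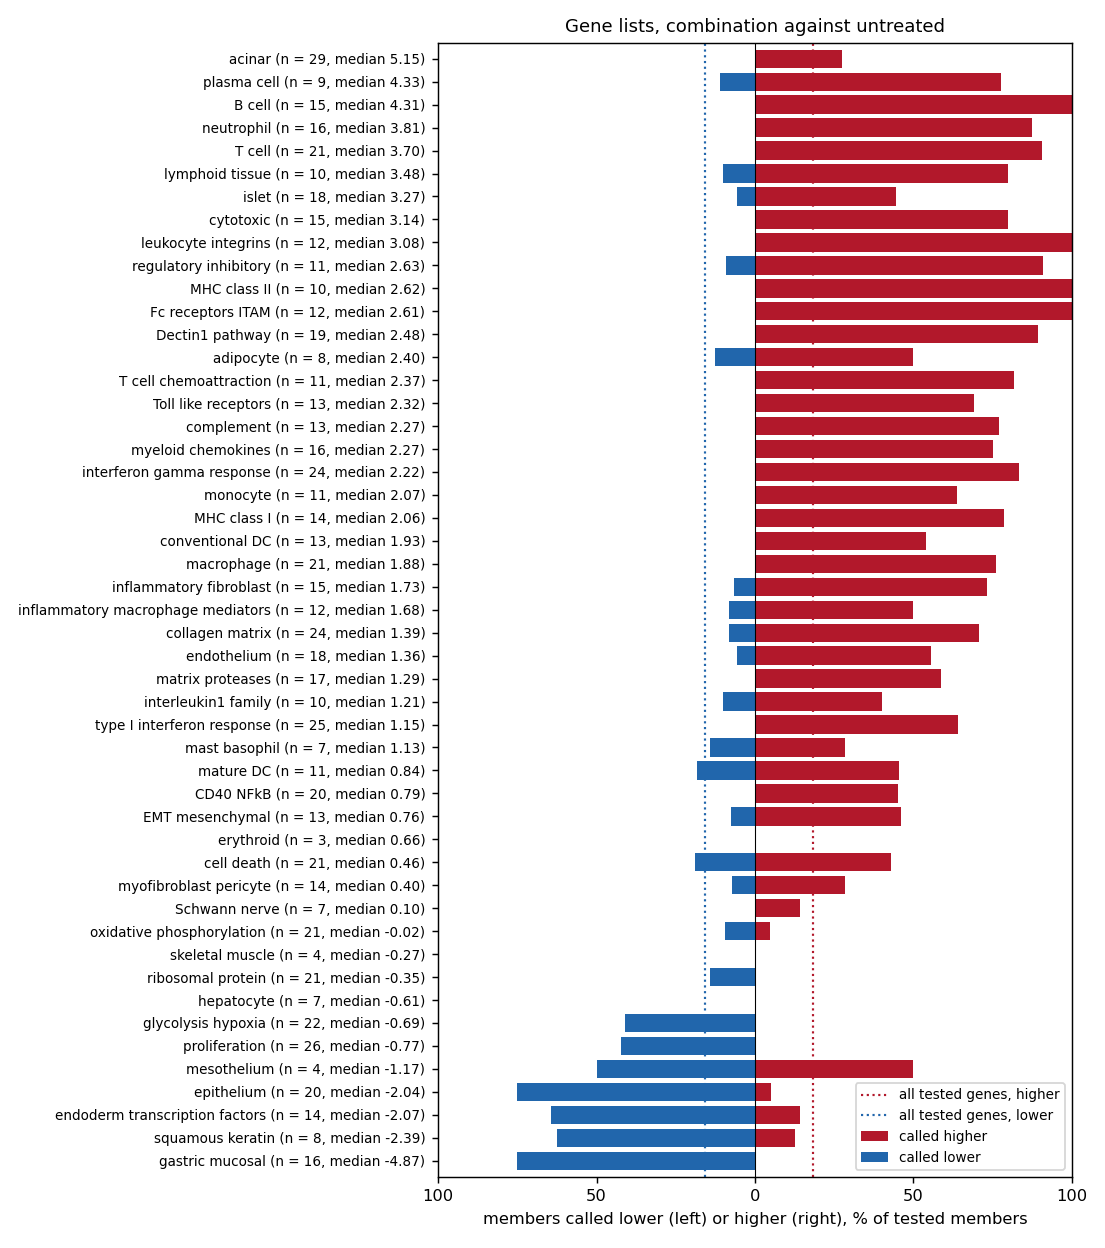
Share of the tested members of 49 gene lists called higher (red, right) or lower (blue, left) in combination against untreated tumours, ordered by median log2 fold change, which stands beside each name with the number tested. Dotted lines mark the same shares over all tested genes, 18.2% higher and 15.8% lower.

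Lymphocyte genes rose together. All 15 tested B cell genes were called higher (median 4.31), and in all 15 the groups did not overlap. Pou2af1, a coactivator of antibody genes, was at 11.6, 10.4, 10.53, 10.3 and 21.3 in untreated and 659, 649.9, 349, 1170.2 and 627 in combination tumours (5.60 ± 0.41, adjusted p = 5.7e-09). Cd79b, a chain of the B cell receptor (5.21 ± 0.54), its restraining partner Cd22 (3.49 ± 0.36) and the scaffold Bank1 (3.34 ± 0.47) followed. Of 9 plasma cell genes 7 rose (median 4.33), beside Mzb1 and Jchain the surface receptor Slamf7 (4.33 ± 0.38) and the transcription factor Irf4 (5.30 ± 0.50). Irf4 went from 2.496, 2.59, 1.75, 4.58 and 10.02 to 140.2, 269, 81.7, 267 and 238. Sdc1, a proteoglycan of plasma cells that epithelium carries too, fell from 4111, 3729.6, 4172, 4802 and 4149.8 to 2597, 1726, 2736, 1654 and 1647 (-1.05 ± 0.26).

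Of 21 T cell genes 19 rose and none fell (median 3.70), with no overlap in 15. Cd3e, a chain of the T cell receptor complex, was at 14.1, 18.99, 1.75, 14.9 and 28.8 against 227, 194, 130.1, 353 and 262 (4.08 ± 0.57, adjusted p = 8.14e-06). The coreceptor Cd4 was at 12.5, 15.5, 14.04, 12.6 and 15.03 against 176, 237, 160.1, 166 and 329.8 (3.79 ± 0.48). For both genes the untreated tumours formed a narrow low group, apart from Cd3e in untreated tumour 3, which was lower still. Cd8a, the coreceptor of cytotoxic T cells, went from 66.6, 52.7, 14.9, 29.8 and 48.8 to 348, 281, 168, 74.4 and 253 (2.36 ± 0.43). Combination tumour 4 was the lowest for Cd8a and still above every untreated tumour. The adhesion receptor Cd2 (4.61 ± 0.56), the interleukin-7 receptor Il7r (3.61 ± 0.45) and the kinase Lck (3.36 ± 0.42) also rose.

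Of 15 genes of cytotoxic and natural killer cells 12 rose (median 3.14). Ccl5, a chemokine of effector T cells and also of myeloid cells, was at 136, 129, 47.4, 156 and 317 against 5828, 4865, 4555, 7735 and 4954 (5.36 ± 0.47). Ifng, the cytokine interferon-gamma, went from 4.16, 0.863, 10.53, 12.6 and 0 to 82.3, 77.4, 59.2, 25.2 and 87.3 (3.84 ± 0.74), lowest in combination tumour 4 and above every untreated tumour there too. Nkg7, a granule protein (3.38 ± 0.41), the death ligand Fasl (4.68 ± 0.69) and the inhibitory receptor Klrg1 (3.67 ± 0.56) rose too. Fasl had reads in 1 untreated tumour and in all 5 combination tumours. Of 11 regulatory and inhibitory receptor genes 10 rose (median 2.63), with Icos (3.96 ± 0.52), Tnfrsf18 (2.63 ± 0.35), Tnfrsf4 (2.98 ± 0.52) and Ctla4 (4.20 ± 0.75), receptors of activated and regulatory T cells, as the clearest. Ikzf2, a factor of regulatory T cells found in other tissues too, fell (-0.87 ± 0.30), a call lost in several alternatives, rescaled totals and the acinar covariate among them.

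Genes that draw T cells and organise lymphoid tissue rose as well. Of 11 chemoattraction genes 9 rose (median 2.37), 5 with rescaled totals. Cxcl9, an interferon-induced chemokine, was at 1275, 468, 353, 711 and 834 against 9931, 7175, 9300.1, 4761 and 7179 (3.49 ± 0.34). Its receptor Cxcr3 rose by 5.26 ± 0.74, and the receptor Cxcr6 by 3.70 ± 0.50. Of 10 lymphoid tissue genes 8 rose (median 3.48). Glycam1, a mucin of the high endothelial venules through which lymphocytes enter lymph nodes, had 0 reads in every untreated tumour. It was at 44.4, 49.3, 79.2, 42.5 and 11.6 with the combination, at least 78.3-fold higher. The B cell chemokine Cxcl13 (5.25 ± 0.58) and lymphotoxin Ltb (4.14 ± 0.52) rose without overlap. Chst4, a sulfotransferase of these venules and of gastric and other mucous epithelium, fell among the 12 largest falls, from 210.5, 201, 98.3, 322 and 179 to 0.643, 0.609, 0.834, 0 and 0 (-7.11 ± 0.75).

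**Figure D4:**
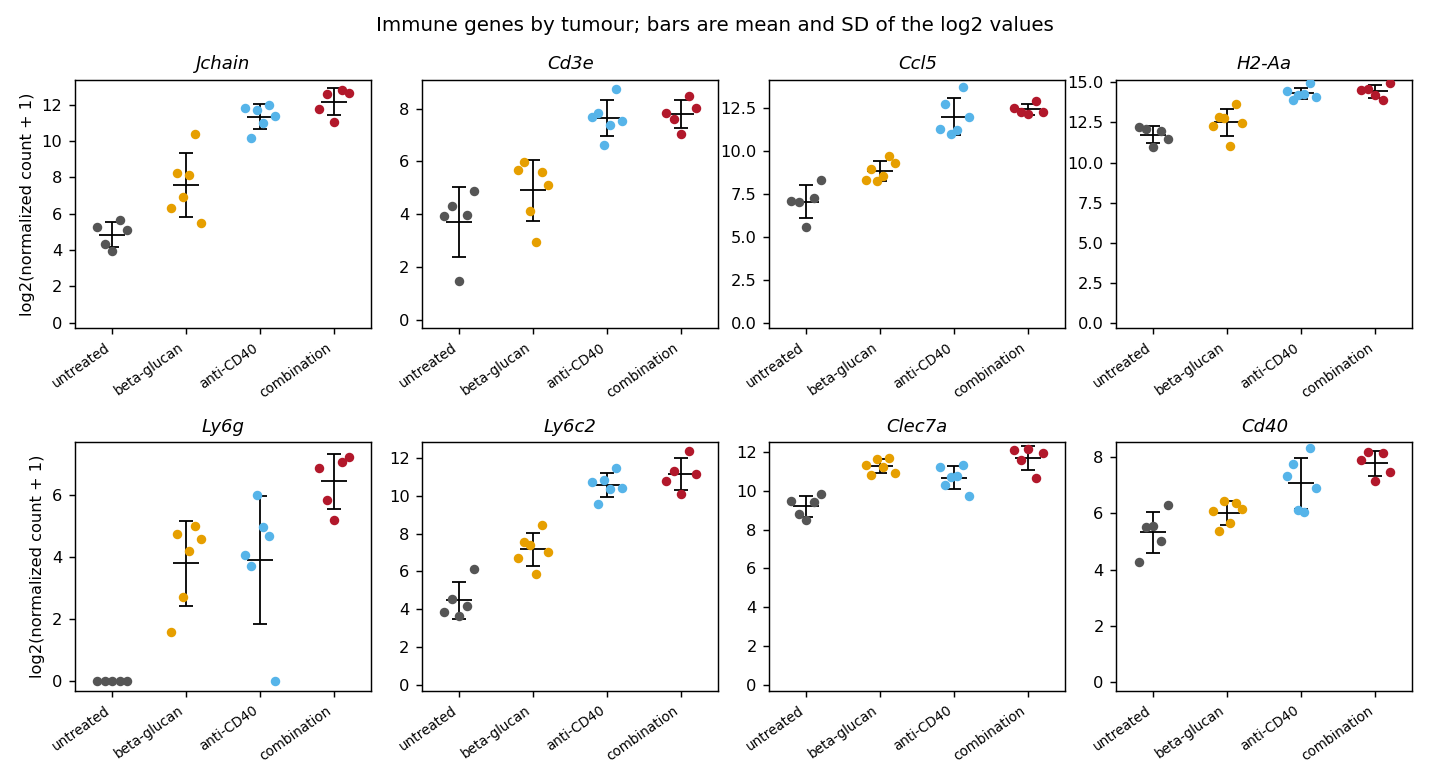
Log2(normalized count + 1) of 8 immune genes in every tumour of the 4 groups; each point is 1 tumour, and bars are the mean and SD of the log2 values. In all 8 every combination tumour lies above every untreated tumour, and Ly6g is at 0 in all 5 untreated tumours.

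Neutrophil genes rose in 14 of 16 cases (median 3.81), and in 14 the groups did not overlap. S100a8 and S100a9 form the calprotectin complex. S100a8 (chromosome 3, 90668978 to 90670035) was at 456, 449, 1095, 703 and 694 in untreated and 13327, 10756, 11594, 13919 and 10332 in combination tumours (4.21 ± 0.53, adjusted p = 3.99e-06). S100a9 rose by 4.28 ± 0.67. Of 11 monocyte genes 7 rose (median 2.07): beside Ly6c2 the receptor Treml4 (3.42 ± 0.47), the integrin Itgam (2.55 ± 0.37) and Ccr2, the receptor by which monocytes leave the marrow. Ccr2 was at 62.4, 95.8, 85.99, 93.9 and 119 against 679, 938, 487, 514 and 663 (2.82 ± 0.45). Of 16 chemokines and chemoattractant receptors of myeloid cells 12 rose (median 2.27). The formyl peptide receptor Fpr2 went from 52.4, 30.2, 64.1, 45.8 and 138 to 2942, 1356, 2369, 2011 and 1604 (5.07 ± 0.37), and Fpr1, the leukotriene receptor Ltb4r1 and the chemokine Ccl9 rose by 4.04 ± 0.62, 3.18 ± 0.43 and 2.83 ± 0.34.

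Of 21 macrophage genes 16 rose and none fell (median 1.88). Ctss, a lysosomal protease used in antigen processing, was at 3272, 3696, 2409, 4148 and 4763 against 32106, 23377, 28249.5, 20032 and 30170.3 (2.89 ± 0.24). Adgre1, the surface antigen F4/80, rose by 2.66 ± 0.25, the lysosomal protein Cd68 by 2.35 ± 0.23 and the complement chain C1qc by 2.39 ± 0.23. Of 12 inflammatory and regulatory mediators 6 rose and 1 fell (median 1.68). Acod1, the enzyme that makes itaconate, went from 34.1, 12.1, 37.7, 33.2 and 80.1 to 1385, 1049, 1143, 490.1 and 998 (4.80 ± 0.46). The cytokines Il1b (2.79 ± 0.40) and Tnf (2.37 ± 0.45) and the arginase Arg1 (2.16 ± 0.35) rose, and Vegfa, the endothelial growth factor, fell (-1.71 ± 0.42). Combination tumour 4 was the lowest of its group for Acod1 and Il1b.

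Most genes of the Dectin-1 pathway, from receptors to the oxidase, were higher. Of 19 genes 17 rose and none fell (median 2.48), with no overlap in 15. Clec7a, which encodes Dectin-1 (chromosome 6, 129461591 to 129472779), was at 716, 442, 361, 674 and 915 in untreated and 4456, 3047, 4490.4, 1613 and 3871 in combination tumours (2.48 ± 0.31, adjusted p = 1.89e-06). Combination tumour 4 held the lowest of these levels. Clec4e, the related receptor Mincle, rose further, from 18.3, 38.8, 85.99, 5.73 and 13.8 to 1191, 833, 979.6, 416 and 983 (5.17 ± 0.52), and Clec4d, its partner, by 3.91 ± 0.35. The adaptor chain Fcer1g (2.40 ± 0.24), the oxidase subunit Cybb (3.44 ± 0.30) and the inflammasome adaptor Pycard (3.04 ± 0.27) rose. Card9 (0.93 ± 0.65, adjusted p = 0.29) and Bcl10 (0.10 ± 0.23, adjusted p = 0.784) are the 2 members not called, and are named here because they make up that count.

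The CD40 and NF-kB list moved less: 9 of 20 genes rose and none fell (median 0.79), and 3 rose with rescaled totals. Cd40 itself (chromosome 2, 165055627 to 165072948) was at 18.3, 44.02, 45.6, 30.9 and 76.4 against 236, 289, 141, 282 and 176 (2.45 ± 0.41, adjusted p = 5.57e-05). The lowest combination value, in tumour 3, lay above the highest untreated value. Tnfaip2, a target of tumour necrosis factor, rose by 1.80 ± 0.26, the inhibitor Nfkbia by 1.47 ± 0.22 and the adhesion molecule Icam1 by 1.71 ± 0.31. Calls for Nfkbia and Icam1 were lost with rescaled totals. All 12 Fc receptor and ITAM adaptor genes rose (median 2.61), Tyrobp from 651, 488, 748, 869 and 1071 to 6485, 4525, 5454, 4208 and 4776 (2.76 ± 0.23). Of 13 genes of Toll-like receptors and their adaptors 9 rose (median 2.32), with Tlr2, a sensor of microbial lipoproteins, from 28.3, 64.7, 46.5, 46.97 and 20.04 to 581, 616, 457, 220.5 and 587 (3.56 ± 0.36). Of 10 interleukin-1 family genes 4 rose and 1 fell, with the antagonist Il1rn up by 1.80 ± 0.30 and Il18 at -0.83 ± 0.23, a call lost with the acinar level as a covariate. All 12 leukocyte integrin and surface genes rose (median 3.08), Itgal, a chain of the integrin LFA-1, by 3.68 ± 0.29.

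Of 13 conventional dendritic cell genes 7 rose (median 1.93), led by the transcription factor Irf8 at 641, 603, 387, 387 and 452 against 2823, 2651, 2073, 2627 and 2789 (2.41 ± 0.22). Wdfy4, needed for cross-presentation, rose by 2.12 ± 0.28 and the lectin Clec10a by 2.55 ± 0.37. Of 11 genes of mature dendritic cells 5 rose and 2 fell (median 0.84). The costimulatory ligand Cd86 (3.33 ± 0.41) and Il12b, a subunit of interleukin-12 and interleukin-23 (3.49 ± 0.85), rose. Il23a, the second subunit of interleukin-23, was at 4.16, 18.1, 21.9, 2.29 and 22.5 against 0, 0, 0, 0 and 5.82 (-2.93 ± 0.90). That call was lost at equal depth and with the acinar level as a covariate.

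All 10 MHC class II genes rose (median 2.62), and 9 did so without overlap. H2-Aa, the alpha chain of the class II molecule I-A (chromosome 17, 34282744 to 34287823), was at 4686, 4369, 1992, 3956 and 2801 against 23141, 24965, 18614, 15219.6 and 31732 (2.70 ± 0.33, adjusted p = 1.74e-06). Every tumour of the combination was above every untreated one. H2-Ab1 and H2-Eb1 rose by 2.62 ± 0.36 and 2.63 ± 0.37, and H2-Eb2, with 0 reads in untreated tumours, at least 117-fold. Of 14 class I and peptide loading genes 11 rose (median 2.06), with B2m (2.04 ± 0.22), the transporter Tap1 (2.45 ± 0.28), the class I activator Nlrc5 (2.17 ± 0.29) and the immunoproteasome subunit Psmb8 (2.25 ± 0.32). The call for B2m was lost under quantile normalization. Genes of the H2 family are alike in sequence, and reads may be split between them.

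Of 24 interferon-gamma response genes 20 rose and none fell (median 2.22), with no overlap in 17. Serpina3g was at 41.6, 25.9, 60.5, 51.6 and 164 against 1257, 679, 1136, 1403 and 803 (4.15 ± 0.38). The guanylate-binding proteins Gbp5 (3.19 ± 0.33) and Gbp2 (3.13 ± 0.40), which act against pathogens inside cells, and the immunity-related GTPase Ifi47 (2.38 ± 0.30) rose. Cd274, the checkpoint ligand PD-L1, went from 154, 57.8, 90.4, 181 and 254 to 590.4, 532, 524, 163 and 525 (1.71 ± 0.46). Combination tumour 4 lay within the untreated range of Cd274, and the call was lost with rescaled totals. Of 25 type I interferon genes 16 rose and none fell (median 1.15), 6 with rescaled totals. Stat2 rose by 1.39 ± 0.17, Oasl2 by 1.77 ± 0.35, Zbp1 by 2.40 ± 0.40 and Cmpk2 by 2.90 ± 0.62.

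Promoter sequences were read from RefSeq on GRCm38.p6 for the 250 bases before the start site, and both strands were searched. The Y box GATTGG, part of the class II promoter that NF-Y binds, was present in all 7 class II genes with a promoter entry. It was also present in 7 of 11 class I genes with an entry (63.6%) and in 21.3% of the 11129 tested genes with one. Capitals mark it in 2 of the class II genes that rose.
H2-Aa, chr17:34287824-34288073, minus strand: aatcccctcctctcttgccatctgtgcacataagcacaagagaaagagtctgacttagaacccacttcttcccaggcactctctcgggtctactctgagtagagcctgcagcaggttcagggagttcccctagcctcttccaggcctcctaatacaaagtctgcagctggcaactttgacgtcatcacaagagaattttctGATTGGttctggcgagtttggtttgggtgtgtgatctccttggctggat
H2-Eb1, chr17:34305617-34305866, plus strand: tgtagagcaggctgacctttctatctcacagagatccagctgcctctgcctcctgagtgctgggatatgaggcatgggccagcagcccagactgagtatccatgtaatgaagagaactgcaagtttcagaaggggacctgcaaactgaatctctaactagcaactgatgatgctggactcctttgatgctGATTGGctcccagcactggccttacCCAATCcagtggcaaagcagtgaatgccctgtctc
Of 17 interferon-gamma response genes with an entry, 8 (47.1%) held TTCNNNGAA, the GAS motif, and 10 (58.8%) held GAAA, 2 bases of any kind and GAAA again, an IRF motif. Among all tested genes the shares were 7.22% and 3.23%, and among 17 type I interferon genes with an entry 11.8% and 41.2%. Capitals mark these motifs in 3 genes that rose. The motif pairs do not overlap in these sequences.
Gbp2, chr3:142620413-142620662, plus strand, 1 IRF motif: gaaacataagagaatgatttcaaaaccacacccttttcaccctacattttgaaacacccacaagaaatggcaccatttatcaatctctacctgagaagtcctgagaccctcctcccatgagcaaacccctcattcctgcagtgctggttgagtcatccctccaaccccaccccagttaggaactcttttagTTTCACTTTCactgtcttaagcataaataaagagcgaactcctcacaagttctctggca
Gbp5, chr3:142496684-142496933, plus strand, 2 GAS and 1 IRF motifs: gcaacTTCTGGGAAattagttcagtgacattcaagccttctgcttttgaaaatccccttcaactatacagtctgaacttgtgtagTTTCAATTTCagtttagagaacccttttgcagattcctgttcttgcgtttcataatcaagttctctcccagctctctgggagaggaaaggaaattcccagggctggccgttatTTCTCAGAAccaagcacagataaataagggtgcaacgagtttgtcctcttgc
Serpina3g, chr12:104235897-104236146, plus strand, 1 GAS motif: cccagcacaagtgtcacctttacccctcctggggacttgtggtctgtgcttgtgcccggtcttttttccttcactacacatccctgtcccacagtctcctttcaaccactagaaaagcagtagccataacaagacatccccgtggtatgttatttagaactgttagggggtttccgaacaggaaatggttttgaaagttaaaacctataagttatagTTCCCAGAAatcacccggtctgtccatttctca
A match describes the letters of the window and is neither a measured binding site nor a cause.

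Of 13 complement genes 10 rose and none fell (median 2.27). C1ra, a protease of the first component, was at 236, 156, 269, 192 and 403 against 2119.7, 1550.1, 1765, 3608 and 1796 (3.11 ± 0.28), C1s1 rose by 3.34 ± 0.40, properdin (Cfp) by 2.27 ± 0.28 and the inhibitor Serping1 by 2.72 ± 0.29. Of 21 cell death genes 9 rose and 4 fell (median 0.46), and with rescaled totals 3 rose and 5 fell. The number that fell was 1 with the acinar level as a covariate and 2 without combination tumours 4 and 5. Tnfsf10, the death ligand TRAIL, rose by 3.60 ± 0.40, Casp1, the inflammasome caspase, by 2.74 ± 0.36 and the death receptor Fas by 2.28 ± 0.38. The survival factor Bcl2 fell (-1.31 ± 0.19), as did Tnfrsf10b, a receptor of TRAIL (-1.46 ± 0.35), whose call was lost with the acinar covariate. Of 7 mast cell and basophil genes 2 rose and 1 fell: Hdc, the enzyme that makes histamine, rose by 3.68 ± 0.89, Kit, a stem cell factor receptor, by 1.13 ± 0.40, and Mcpt8 fell from 235, 147, 249, 411 and 369 to 12.9, 9.75, 55.9, 7.97 and 3.88 (-4.35 ± 0.54). The call for Kit was lost in 10 of 24 alternatives, among them rescaled totals, the acinar covariate, edgeR and the fit without combination tumours 4 and 5. It was also lost without untreated tumour 1 or 2 and without combination tumour 2, 4 or 5.

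Connective tissue genes were higher with less contrast. Of 24 collagen and matrix genes 17 rose and 2 fell (median 1.39), and with rescaled totals 5 rose and 2 fell. Col1a1, a chain of type I collagen, was at 14530.3, 21738, 27335, 15383 and 33937 against 85468, 65721, 70198, 81592 and 66169 (1.78 ± 0.28), a call lost under quantile normalization. Col3a1 (2.13 ± 0.28), Col16a1 (1.91 ± 0.24) and decorin, Dcn (2.94 ± 0.41), rose without overlap, and Col10a1, at -3.998 ± 0.95, fell. Of 15 inflammatory fibroblast genes 11 rose and 1 fell (median 1.73), with 7 called higher after rescaling. Saa3, an acute phase protein that macrophages make too, went from 552, 369, 2273, 1423 and 1314 to 40720.0, 19898, 32579, 30755 and 33284 (4.98 ± 0.58), the chemokine Cxcl12 rose by 3.77 ± 0.49 and the receptor Pdgfra by 2.36 ± 0.39. Il11, a cytokine of activated fibroblasts, fell (-1.68 ± 0.49), a call lost without tumours 4 and 5.

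Of 14 myofibroblast and pericyte genes 4 rose and 1 fell (median 0.40), 2 and 1 with rescaled totals (median -0.05). Thbs2 rose by 1.95 ± 0.29 and Rgs5, of pericytes, by 2.28 ± 0.37, and the contractile gene Tagln fell (-1.40 ± 0.35), a call lost without combination tumours 4 and 5. Of 17 matrix proteases and inhibitors 10 rose (median 1.29), 4 with rescaled totals. The gelatinases Mmp2 (2.48 ± 0.34) and Mmp9 (2.66 ± 0.39) rose without overlap. Of 18 endothelial genes 10 rose and 1 fell (median 1.36), 5 and 1 with rescaled totals. Pecam1, an adhesion molecule of blood vessels, was at 299, 241, 368, 335 and 353 against 1338, 1026, 1321, 1669.7 and 1056 (1.996 ± 0.28), and Plvap (2.09 ± 0.32) and the receptor Kdr (1.68 ± 0.27) rose. Sox17, a factor of both endothelium and endoderm, fell (-2.68 ± 0.63). Of 13 mesenchymal transition genes 6 rose and 1 fell (median 0.76), 2 and 1 with rescaled totals. Tgfbi, also made by macrophages, rose by 2.69 ± 0.28, and Cdh2 fell (-1.42 ± 0.52). The call for Cdh2 was lost in 10 of 24 alternatives, among them the replicate block, the acinar covariate, edgeR and the fit without combination tumours 4 and 5, and no gene of the list fell under the block, the covariate or that last fit. It was also lost without untreated tumour 1, 5 or 6 and without combination tumour 4 or 5.

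Markers of tissues that may adjoin a tumour were uneven. Of 29 acinar genes 8 were called higher (median 5.15), none without overlap between groups. Cela2a, a pancreatic elastase (chromosome 4, 141814962 to 141826160), was at 0, 2.59, 1449, 1926 and 1607 in untreated and 376, 44954, 9201, 19998 and 59095 in combination tumours (6.68 ± 2.23, adjusted p = 0.0269). Without combination tumours 4 and 5 the count was 1. The count was 24 with the replicate block, 12 with DESeq2 or without trend and robust moderation, and 4 with edgeR or only the compared groups. When 1 tumour was left out it was 28 for untreated tumour 6 and 26 for combination tumour 1. It was 3 for untreated tumour 1 or 2 and for combination tumour 2, 4 or 5, and 4 for combination tumour 3. Of 18 islet genes 8 rose and 1 fell (median 3.27), with the granule protein Chga at 2.496, 0, 0, 30.9 and 92.7 against 129.9, 599, 57.5, 719.9 and 382 (5.37 ± 1.17), and 1 rose without tumours 4 and 5. Leaving out combination tumour 3 raised that count to 13, while it was 3 for tumour 2 and 4 for tumour 4 or 5. For untreated tumours 1 and 2 it was 5 and 4. Of 8 adipocyte genes 4 rose and 1 fell, 2 and 1 without tumours 4 and 5. None of 7 hepatocyte, 4 skeletal muscle or 3 erythroid genes was called, and 1 of 7 Schwann cell genes was. Of 4 mesothelial genes Wt1 (1.97 ± 0.33) and Gpm6a (4.19 ± 0.82) rose, and Msln (-4.70 ± 0.80) and Krt19, both also of ductal tumour cells, fell.

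**Figure D5:**
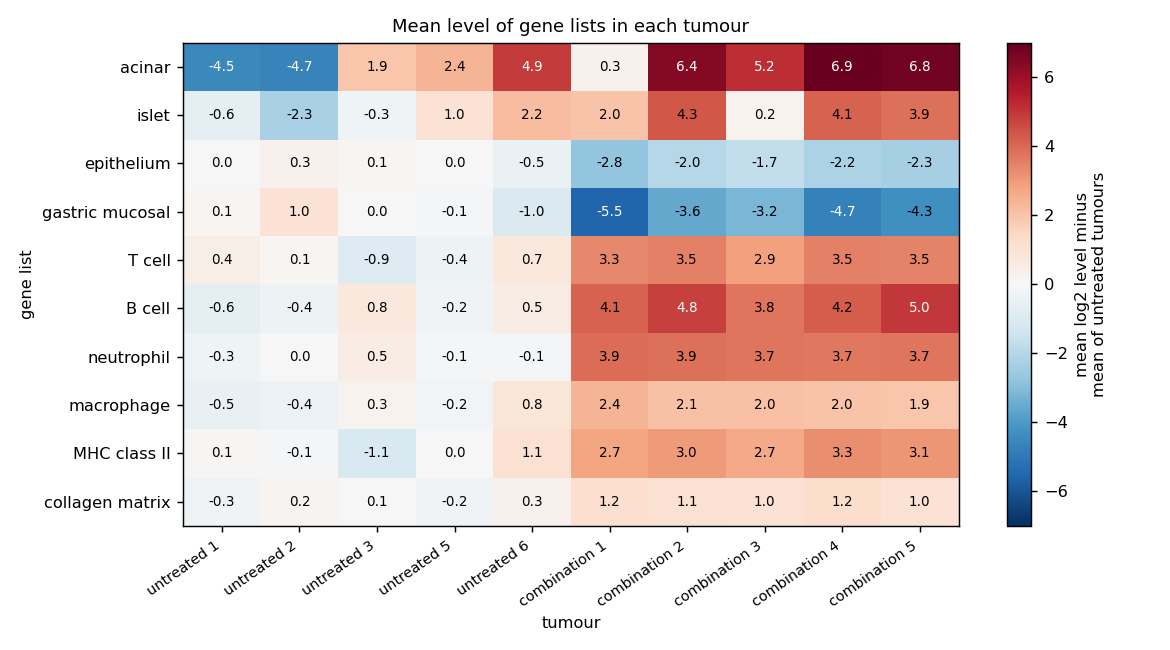
Mean log2(normalized count + 1) of 10 gene lists in each of the 10 tumours, minus the mean of the 5 untreated tumours; rows are lists, columns are tumours, and the number in a cell is that difference. Combination tumour 1 has an acinar difference of 0.31, inside the untreated range of -4.69 to 4.92, and B cell, T cell and neutrophil differences of 4.11, 3.34 and 3.90.

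For 5 immune lists, the combination tumour with few acinar reads lay within or above the range of the other 4. Combination tumour 1 stood above the untreated mean by 3.34 for T cell genes, 4.11 for B cell genes, 3.90 for neutrophil genes, 2.39 for macrophage genes and 2.75 for class II genes. The other 4 ranged over 2.88 to 3.52, 3.77 to 4.97, 3.70 to 3.88, 1.91 to 2.06 and 2.67 to 3.26. Gastric and mucosal genes stood 5.53 under the untreated mean in tumour 1 and 3.22 to 4.74 under it in the others. Without tumours 4 and 5 the counts called higher were 15 of 15 B cell, 17 of 21 T cell, 13 of 16 neutrophil and 10 of 10 class II genes, and 14 of 20 epithelial genes were called lower. The acinar list still had a median log2 fold change of 4.07 in that fit, against 5.15 with all tumours. It thus does not compare tumours of equal acinar content, and it has fewer tumours to detect a change.

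Against anti-CD40 alone the combination differed in 212 genes (1.48%), 94 higher (0.658%) and 118 lower (0.826%). None of the B cell, plasma cell, T cell, cytotoxic, class I, class II or interferon-gamma response genes was called in that contrast. The medians of these lists lay between -0.07 and 0.59. With 1.48% of all tested genes called, lists of 9 to 24 genes would hold few calls or none. Their lack of calls is thus near the share over all genes and does not set them apart. Depth (6327092 to 21173617 reads) and acinar share (0.619 to 65.9%) also varied widely among the anti-CD40 tumours. With the acinar level as a covariate 243 genes were called, 211 of them among the 212, and at equal depth 239, 188 of them shared. Cd3e differed by 0.17 ± 0.55 and Ifng by 0.12 ± 0.71. The calls that were higher included 4 of 16 myeloid chemoattractant, 3 of 16 neutrophil, 3 of 12 mediator, 3 of 19 Dectin-1 pathway, 4 of 24 collagen and 4 of 17 matrix protease genes. Serpinb2 was at 4.87, 0, 13.2, 0, 17.3 and 0 with anti-CD40 against 129.9, 138, 174, 125 and 151 with the combination (5.40 ± 0.73). Cxcr2, the neutrophil chemokine receptor, was at 40.5, 4.45, 21.1, 11.9, 12.6 and 0 against 105, 120.0, 146, 143 and 79.5 (3.58 ± 0.63), and its ligand Cxcl2 differed by 3.56 ± 0.57. Sprr2e (5.49 ± 0.84), Il1f9, a cytokine of the interleukin-1 family (4.70 ± 0.92), and Slc6a12 (3.45 ± 0.88) were the other leading ones. S100a8 (2.03 ± 0.51), Clec4e (2.02 ± 0.49) and Col1a1 (1.18 ± 0.27) were called higher as well. Part of the gap for Serpinb2, Cxcr2 and Cxcl2 lay in the anti-CD40 tumours. These were under untreated tumours by log2 fold changes of -2.34, -1.80 and -1.87, all called. Over untreated tumours the combination was higher by 1.78 for Cxcr2 and 1.69 for Cxcl2, and each call was lost in 10 of 24 alternatives.

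The genes lower than with anti-CD40 alone included 3 of 20 epithelial, 3 of 16 gastric and mucosal and 3 of 26 proliferation genes. Lgals2, a galectin of gut epithelium, was at 143, 329.7, 559.7, 236, 12.6 and 86.9 with anti-CD40 against 0, 3.65, 27.5, 1.33 and 0 with the combination (-5.48 ± 0.84). Mcpt2 (-4.68 ± 0.76), Cldn18 (-4.66 ± 0.995), Vsig1 (-4.22 ± 1.05), Glod5 (-4.17 ± 0.93) and Adam28 (-3.76 ± 0.83) followed. Krt19 was also lower (-2.43 ± 0.51, adjusted p = 0.0308), and Clec7a (1.01 ± 0.30), Cd40 (0.70 ± 0.39), Cd274 (1.35 ± 0.44), Tnf (1.55 ± 0.43) and Ccr2 (1.23 ± 0.43) were not called. This contrast depended on its tumours: 9 genes were called without combination tumours 4 and 5, 6 when only its own 2 groups were fitted, and 28 to 852 when 1 tumour was left out. The number was 852 without anti-CD40 tumour 5, 395 without 6, 28 without 2, 33 without 3, 42 without 4 and 120 without 1. It was 45, 82, 82 and 60 without combination tumour 1, 2, 4 and 5.

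Against beta-glucan alone 2013 genes differed (14.1%), 926 higher (6.49%) and 1087 lower (7.61%). Here lymphocyte and antigen presentation genes were higher: 13 of 15 B cell, 17 of 21 T cell, 10 of 10 class II and 15 of 24 interferon-gamma response genes. The beta-glucan tumours held 7131052 to 8738064 reads and 0.548 to 17.1% acinar reads, both lower on the whole than in the combination tumours. With the acinar level as a covariate 1443 genes were called, 1375 of them among the 2013, and at equal depth 1950, 1853 of them shared. Jchain was at 77.5, 300.3, 118, 279, 1346 and 43.1 with beta-glucan against 3419, 6166, 2122, 7154 and 6405 with the combination (4.60 ± 0.63). Mzb1 (4.75 ± 0.83), Slpi (4.26 ± 0.54), the odorant-binding protein Obp2b (4.63 ± 1.12) and the granzymes Gzmf (4.35 ± 1.06) and Gzmg (4.29 ± 0.99), near-identical copies whose reads may be shared, led the rises. Ifng (3.67 ± 0.71), Cd8a (1.92 ± 0.41), Cd40 (1.76 ± 0.39), Ccr2 (1.54 ± 0.43) and S100a8 (1.66 ± 0.51) were called. Clec7a (0.42 ± 0.30, adjusted p = 0.379), Clec4e (0.75 ± 0.49) and Tnf (0.75 ± 0.43) were not. Against untreated tumours the combination was not called for Gzmf (log2 fold change 2.27). For Gzmg (2.98) that call was lost in 11 of 24 alternatives. Beta-glucan alone differed from untreated by -2.07 for Gzmf and -1.31 for Gzmg, neither called.

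Lower than with beta-glucan alone were 8 of 20 epithelial, 8 of 16 gastric and mucosal and 15 of 26 proliferation genes. Adh7 (-6.42 ± 1.14), Mcpt2 (-6.22 ± 0.76), Otop3 (-6.15 ± 1.04), Lgals2 (-6.14 ± 0.84), Phlda2 (-5.93 ± 1.13) and Prap1 (-5.84 ± 1.17) led. Krt19 was at 2913, 2274, 1347, 3446, 1268 and 3167 with beta-glucan (-3.14 ± 0.51 for the combination against it). Without combination tumours 4 and 5 the contrast called 618 genes, and with rescaled totals 132 genes were higher and 1057 lower.

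The interaction asked whether the combination differed from the sum of both single effects on the log2 scale. It was called for 3 genes (0.0210%), all lower than that sum, and 1194 genes had an unadjusted p under 0.05. DESeq2 on recovered reads called 98. Glycam1 (chromosome 15, 103562759 to 103565081) was at 13.9, 21.2, 13.2, 7.601, 32.8 and 10.54 with beta-glucan, 95.1, 57.2, 29.04, 37.4, 149 and 51.6 with anti-CD40 and 44.4, 49.3, 79.2, 42.5 and 11.6 with both (adjusted p = 0.0318 for the interaction). With no reads in untreated tumours the size of its interaction depends on the pseudocount and is not given here, and with a pseudocount of 8 no gene was called. Dcstamp, a membrane protein of cell fusion (chromosome 15, 39745930 to 39760938), was at 265, 190.0, 285, 191, 301 and 236 with beta-glucan, 98.96, 66.7, 66.00, 44.2, 101 and 21.7 with anti-CD40 and 196, 124, 318, 121 and 136 with both (-2.92 ± 0.50, adjusted p = 0.0385). Tuba1a, an alpha-tubulin (chromosome 15, 98949837 to 98953703), had log2 fold changes over untreated of 1.21 ± 0.22 with beta-glucan, 0.92 ± 0.22 with anti-CD40 and 0.39 ± 0.23 with both, the last -0.06 with rescaled totals. Its interaction was -1.74 ± 0.31 (adjusted p = 0.0486). For Glycam1 and Dcstamp the combination was far above untreated tumours, where Glycam1 had no reads and Dcstamp was at 13.3, 6.04, 12.3, 9.16 and 13.8. No gene was called when combination tumour 4 or 5 was left out, and 12 were without untreated tumour 6.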

How the data were processed

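RNA of 22 tumours was sequenced from the 3' end (QuantSeq FWD kit, 5 µm sections). STAR, the mm10 genome and DESeq2 are named without versions in the submitters' processing notes. Strand use in counting is not given in the sources used here. The deposited values are a non-negative signal, normalized counts that the authors scaled by a size factor per tumour. Dividing by the smallest step gave whole reads (within 0.001 reads) for 100% of 395252 values, and these reads gave the depth of each tumour. Of 17966 gene names, 23 had been turned into dates and were left as they are, and 2 were duplicated.

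Genes that reached 10 in 5 or more of the tumours (14278) were tested with limma 3.58.1 (R 4.3.3) on log2(value + 1), with 4 group means, trended and robust moderation, two-sided, and Benjamini-Hochberg adjustment at 0.05. The fit was also run on simulated counts, with a single spread setting for all genes and no differences in acinar content between tumours. That run checks the code and not the calls in these tumours. Alternatives were other pseudocounts, filters and scalings, a replicate block, an acinar covariate, left-out tumours and, added after seeing the data, edgeR 4.0.16 and DESeq2 1.42.0 on recovered reads, equal depth, and no combination tumours 4 and 5. "Rescaled totals" means values scaled to 1 sum per tumour.

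The tumours compared and the 49 gene lists were chosen with earlier results of these data known. Genes were named as the 12 largest called rises and falls whose higher group averaged 30 or more, per list up to 4 called members of smallest p and 2 of the other direction, a fixed set of 14 genes, and the 6 largest called rises and falls in the other contrasts; some genes this rule names are not reported here. Gene positions are from GENCODE M21 on GRCm38, which shares the coordinates of mm10.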

Additional observations from a re-analysis of the deposited data

Results flagged for a closer look

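Among 128 groups of 5 or 6 tumours examined (the genes whose values are printed by tumour, and 10 list levels), 12 held a tumour whose gap to its neighbour was above Dixon's 95% critical value (0.71 of the range for 5 tumours); all 12 were groups of 5. Chance flags about 1 in 20 groups, and these genes are not independent. Untreated tumour 6 stood apart for Cdh1 (0.735), Krt19 (0.717) and Onecut2 (0.714), each lowest there, and for Pou2af1 (0.835), highest there. Untreated tumour 3 was the lowest for Cd3e (0.716). Combination tumour 3 held the highest Otop3 (1) and Adh7 (1), and the lowest Irf8 (0.767) and T cell list level (0.72). Combination tumour 4 held the lowest Cd274 (0.908), and tumour 5 the highest Il23a (1). Combination tumour 1 held the lowest acinar list level (0.736). A gap of 1 means that the other 4 tumours had equal values, here 0.

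The combination differed from the sum of both single effects in Glycam1 (-4.60), Dcstamp (-2.92) and Tuba1a (-1.74), by the interaction term of limma on the log2 scale. The value for Glycam1, which had no reads in untreated tumours, depends on the pseudocount and is no estimate of size.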

How the results depend on the processing

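The count of 4849 genes called between combination and untreated tumours was 3636 to 5196 over 24 alternatives, and 4134 to 5037 when 1 tumour was left out. It was 4604 with edgeR and 5196 with DESeq2 on recovered reads. Replicate numbers, taken from the sample titles, were not shown to pair the tumours (correlations 0.258, 0.259, 0.0387 and -0.0169 for numbers 1, 2, 3 and 5). For untreated tumours 1 and 2 the same number gave the highest correlation with any combination tumour. The highest of all, 0.403, joined untreated tumour 6 to combination tumour 4. The column of combination tumour 5 carries the number 6, and its correlation with untreated tumour 6 was -0.147. With the replicate block, which used the title numbers, 4790, 223 and 2387 genes were called against untreated, anti-CD40 and beta-glucan, and 8 for the interaction.

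Against anti-CD40, in place of 212, rescaled totals gave 8, rescaled totals without acinar genes 50, the compared groups alone 6, no trend or robust moderation 83, DESeq2 665, no combination tumours 4 and 5 gave 9, and leaving out 1 tumour 28 to 852. Against beta-glucan, in place of 2013, rescaled totals gave 1189 (132 higher), no combination tumours 4 and 5 gave 618, and leaving out 1 tumour 1395 to 2122. For the interaction, in place of 3, a pseudocount of 8 gave 0, a minimum of 30 gave 5, rescaled totals 0, the same without acinar genes 1, quantile normalization 0, DESeq2 98, equal depth 6 and no combination tumours 4 and 5 gave 0. Leaving out 1 tumour gave 0 to 12 there: 12 without untreated tumour 6, 8 and 6 without anti-CD40 tumours 5 and 6, 1 without anti-CD40 tumour 3, and 0 without any 1 of untreated tumours 1, 2 and 5, beta-glucan tumours 1, 2, 3 and 5, anti-CD40 tumours 1 and 2 or combination tumours 4 and 5. The cause of these changes was not tested.

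Of 230 named genes called, 181 kept the call in every alternative and 49 lost it in at least 1. With rescaled totals Tuba1a reversed to -0.0643 and Sdha to -0.11, neither called. Depth limits genes with few reads: a group at 0 is given as a bound from 3 reads over the group.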

Other observations

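Sensing and signalling genes of leukocytes not described above rose too. Pirb, an inhibitory receptor of myeloid cells, was at 64.1, 104, 64.9, 133 and 133 in untreated and 1431, 919.7, 1068, 1104 and 816 in combination tumours (3.45 ± 0.30, limma), and the Src family kinase Fgr (2.77 ± 0.28) rose. The nucleic acid sensors Tlr7 (3.98 ± 0.60) and Tlr13 (2.64 ± 0.28) and Tlr1, a partner of Tlr2 (2.72 ± 0.44), rose as well. Spn (3.98 ± 0.35), Itga4 (2.23 ± 0.20) and Selplg (3.08 ± 0.29), surface proteins by which leukocytes roll and adhere, were called higher. Of the mature dendritic cell list, Pdcd1lg2, the checkpoint ligand PD-L2, rose by 2.02 ± 0.40 and Il15ra, which presents interleukin-15, by 3.56 ± 0.94, and Socs2, a brake on cytokine signals, fell (-0.78 ± 0.22), a call lost with the acinar covariate and without combination tumours 4 and 5.

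Among islet hormones, Sst (somatostatin) was at 0, 0, 0, 10.3 and 30.1 in untreated and 36.7, 312, 2.501, 259 and 160.0 in combination tumours (4.45 ± 1.36), and Iapp, the amyloid peptide of beta cells, differed by 4.61 ± 1.38. Both calls were lost with the acinar level as a covariate and without combination tumours 4 and 5.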
